A study of Mus musculus with 6 samples.

Results

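The 7 protein genes of complex I that are encoded in mitochondrial DNA, mt-Nd1, mt-Nd2, mt-Nd3, mt-Nd4, mt-Nd4l, mt-Nd5 and mt-Nd6, were followed in cultured mouse 1-cell embryos. They were found by symbol, and all 7 were present among the 36065 records of the table, where they are 7 of the 13 mitochondrially encoded protein genes. The embryos were wild type (WT) in every group and were kept in vitro with CBR-5884 and S-adenosylmethionine (CBR+SAM), with CBR-5884 alone (CBR) or with DMSO, the solvent. CBR-5884 is a small molecule that inhibits the first enzyme of serine synthesis, and S-adenosylmethionine is the methyl donor of the cell. Each group had 2 replicates, which makes 6 libraries, each made from embryo RNA in bulk. The labels give neither the strain, nor the doses, nor the hours in culture, nor how many embryos made up a library, and they do not say that replicates came from separate matings, so p-values measure only the spread between these libraries.

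Complex I, the NADH dehydrogenase of the respiratory chain, passes electrons from NADH to ubiquinone and pumps protons across the inner mitochondrial membrane. Its membrane arm is built around the mt-Nd proteins: the products of mt-Nd2, mt-Nd4 and mt-Nd5 are the antiporter-like pumping subunits, that of mt-Nd1 borders the ubiquinone channel, and those of mt-Nd3, mt-Nd4l and mt-Nd6 are small subunits between them, while the remaining subunits are encoded in the nucleus. Mitochondrial DNA is transcribed into long RNAs that are cut apart at the transfer RNAs, so the genes of a strand share a transcript and differ in abundance mainly by later processing and decay. The mitochondria of the zygote come from the oocyte.

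The gene models show how closely these genes are packed, which bears on how reads are divided among them. In mm10, mt-Nd1 (ENSMUSG00000064341) lies at chrM:2751-3707, mt-Nd2 (ENSMUSG00000064345) at chrM:3914-4951, mt-Nd3 (ENSMUSG00000064360) at chrM:9459-9806 and mt-Nd4l (ENSMUSG00000065947) at chrM:9877-10173. On the same plus strand follow mt-Nd4 (ENSMUSG00000064363) at chrM:10167-11544 and mt-Nd5 (ENSMUSG00000064367) at chrM:11742-13565. The exception is mt-Nd6 (ENSMUSG00000064368), which lies on the minus strand at chrM:13552-14070. All are single exons without introns. The first 24 bases of each, from the GENCODE M21 transcripts, show the start codon in capitals, which is ATG in mt-Nd4, mt-Nd4l and mt-Nd6 and another codon in the others.
mt-Nd1: GTGttctttattaatatcctaaca
mt-Nd2: ATAaatcctatcacccttgccatc
mt-Nd3: ATTaacctgtacactgttatcttc
mt-Nd4: ATGctaaaaattattcttccctca
mt-Nd4l: ATGccatctaccttcttcaacctc
mt-Nd5: ATCaatattttcacaacctcaatc
mt-Nd6: ATGaataattatatttttgtttta

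The last 24 bases of mt-Nd4 end in a single T, in capitals, and the stop codon is completed only when the poly(A) tail is added. The other gene whose end is shown, mt-Nd4l, carries a whole stop codon.
mt-Nd4: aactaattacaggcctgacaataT
mt-Nd4l: aatctcaacctactacaatgcTAA

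The gene mt-Nd4l runs 7 bases into mt-Nd4, and mt-Nd5 and mt-Nd6 overlap by 14 bases on opposite strands. No transfer RNA can thus lie between mt-Nd4l and mt-Nd4, and their reads may come from the same RNA. The 7 shared bases are in capitals in the stretch chrM:10143-10197, read on the plus strand.
mt-Nd4l and mt-Nd4: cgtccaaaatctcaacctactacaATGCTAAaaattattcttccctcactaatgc

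The strand sets mt-Nd6 apart in composition: G made up 28.1% of its transcript, against 8.0% to 11.6% in the other 6. The protocols describe no marking of strand, so reads of mt-Nd6 and of RNA from the opposite strand of that region cannot be told apart.

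Several nuclear records resemble these genes and may share their reads. Among annotated transcripts, 7 nuclear records matched a member over at least 100 bases at an identity of at least 90%, and mt-Nd1 had none. A segment of chromosome 1 holds the closest: Gm28438 (chr1:24612775-24613119, minus strand) differs from mt-Nd3 at a single base over 345 bases, T3C, counted from the first base of mt-Nd3 with its base first. The opening of the pair is shown with that base in capitals, for mt-Nd3 at chrM:9459-9491 and for Gm28438 at chr1:24613087-24613119.
mt-Nd3: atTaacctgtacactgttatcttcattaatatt
Gm28438: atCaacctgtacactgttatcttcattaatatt

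In the same segment, Gm10222 (chr1:24612407-24612700, minus strand) is identical to 294 of the 297 bases of mt-Nd4l, and Gm28439 (chr1:24611535-24612410, minus strand) to the first 876 bases of mt-Nd4. The whole of mt-Nd4l is shown, with the bases shared with Gm10222 in capitals, because reads of those bases could be assigned to either record.
mt-Nd4l: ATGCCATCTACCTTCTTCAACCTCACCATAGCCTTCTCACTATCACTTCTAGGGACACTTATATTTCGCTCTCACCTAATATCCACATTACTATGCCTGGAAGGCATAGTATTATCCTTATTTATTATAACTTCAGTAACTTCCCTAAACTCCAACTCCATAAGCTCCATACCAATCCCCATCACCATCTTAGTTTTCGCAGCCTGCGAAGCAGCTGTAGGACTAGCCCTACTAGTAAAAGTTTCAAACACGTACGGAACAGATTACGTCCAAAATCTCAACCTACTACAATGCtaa

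The table gave Gm10222 at most 4.21e-07 and Gm28439 at 0 in every library, so nearly all reads of these sequences had been assigned to the mitochondrial gene. Gm28438 instead stood near the level of mt-Nd3. The closest record to mt-Nd2 was Gm13339 (chr2:22590024-22590533, minus strand), with 96.7% identity over 510 bases, and it stood at no more than 0.624. The remaining copies, Gm4076 and Gm11407 of mt-Nd5 and Gm11408 of mt-Nd6, stood at no more than 0.144.

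Values are signal on a scale like TPM, per transcript length and library, and an approximate depth of 25.0 to 32.0 M reads was estimated from the steps between low values. By that estimate the members rested on about 2384 reads (mt-Nd6 in DMSO replicate 2, counting error 2.05%) to about 132854 reads (mt-Nd1 in CBR+SAM replicate 2, 0.274%), so the spread between libraries exceeded counting error. All 12 oocyte and zygote markers had a mean of at least 1. Of markers of other cells, the cumulus and granulosa list summed to 237 to 616, nearly all from Serpine2, with 2 of 10 markers at a mean of at least 1. Sperm markers summed to 10.3 to 15.5, oviduct markers to 2.65 to 4.20 and blood markers to at most 0.635. CBR+SAM replicate 2 stood apart: its correlation with the other libraries over genes was 0.955 to 0.971, against 0.978 to 0.992 among the rest, and it had the lowest cumulus sum and the highest mitochondrial sum. The part of these differences in the results was not tested.

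The highest signal per length was that of mt-Nd1, with a mean of 4443 over the 6 libraries, and mt-Nd6 had the lowest, with a mean of 353. The means of mt-Nd2, mt-Nd4, mt-Nd4l and mt-Nd3 followed mt-Nd1 in that order and mt-Nd5 came next to last. Across libraries mt-Nd1 had rank 1, mt-Nd4 rank 3, mt-Nd5 rank 6 and mt-Nd6 rank 7 in 6 of 6. This order uses the mt-Nd3 record alone and depends on the reads assigned to Gm28438. With Gm28438 added, the pair was at 2344 in DMSO replicate 1, above mt-Nd2 (2173) and mt-Nd4 (1664). In CBR replicate 1 the pair was at 1222, below mt-Nd4 (1566). The ranges of mt-Nd2 and mt-Nd4, of mt-Nd4 and mt-Nd4l, of mt-Nd4l and mt-Nd3, and of mt-Nd5 and mt-Nd6 overlapped, although mt-Nd5 was above mt-Nd6 within each of the 6 libraries. Replicates differed in the same direction for every member within a group, by unequal factors: replicate 1 was above replicate 2 for 7 of 7 members in CBR, by 1.22 to 1.49 times, and for 7 of 7 in DMSO, by 1.30 to 1.90 times. In CBR+SAM, replicate 2 was the higher for all 7, by 1.06 to 2.05 times.

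**Figure D1:**
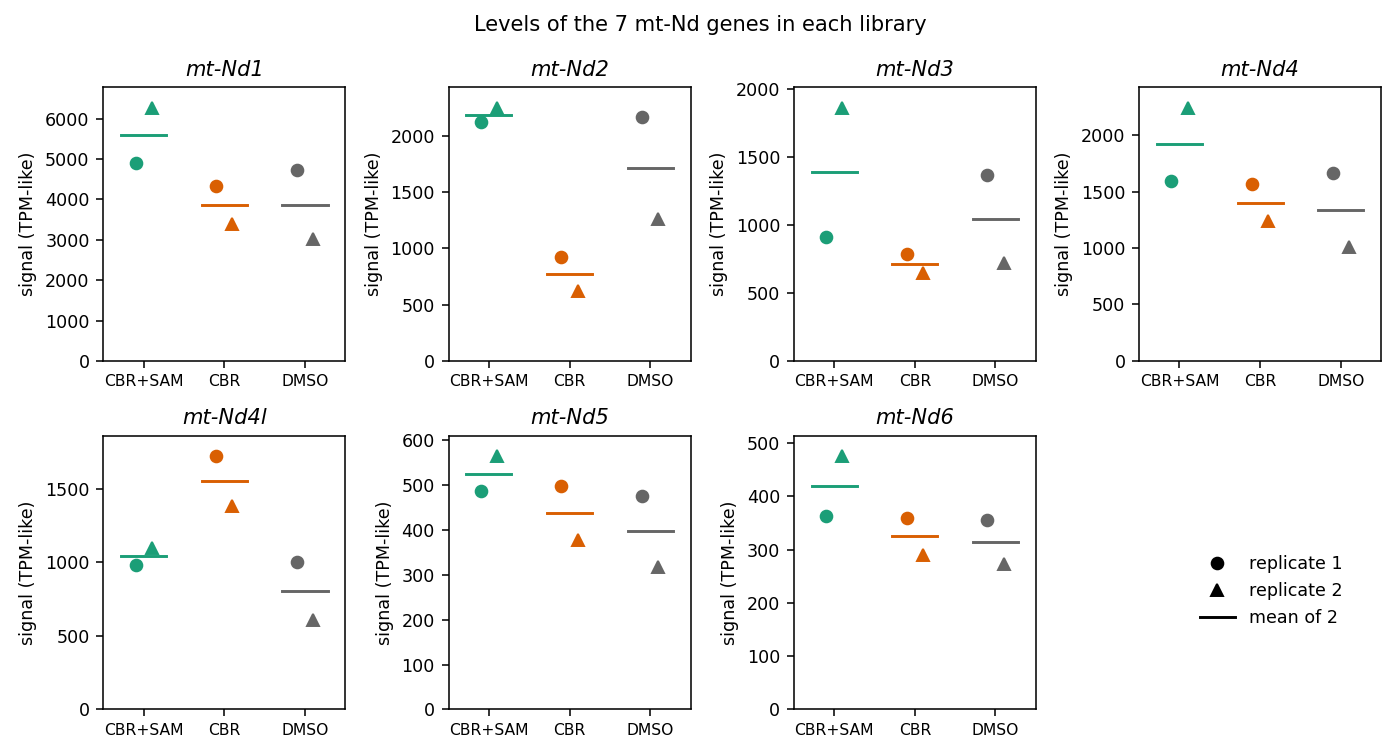
Signal (TPM-like, linear axis from 0) of each of the 7 genes in the 6 libraries, with a circle for replicate 1, a triangle for replicate 2 and a line for the mean of 2. In mt-Nd2 both CBR libraries lie below both DMSO libraries, and in mt-Nd4l both lie above them.

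Embryos with CBR against those with DMSO address these transcripts under the inhibitor alone. The antiporter-like subunit gene mt-Nd2 was at 928 and 622 in CBR replicates 1 and 2, against 2173 and 1261 in DMSO. Both CBR libraries were below both DMSO libraries. The short gene mt-Nd4l was at 1722 and 1383 in CBR, against 1001 and 607 in DMSO, and both CBR libraries were above both DMSO libraries. The other antiporter-like genes overlapped between groups: mt-Nd4 was at 1566 and 1237 in CBR, against 1664 and 1009 in DMSO. For mt-Nd5 the values were 498 and 378 in CBR, against 477 and 318 in DMSO. The gene at the ubiquinone channel, mt-Nd1, was at 4338 and 3391 in CBR, against 4724 and 3019 in DMSO. For mt-Nd6 the values were 360 and 291 in CBR, against 355 and 273 in DMSO, and the groups of each of these 4 genes overlapped.

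None of the 7 passed limma's test on log2(value + 1) at an adjusted p under 0.05 over 12249 genes, and 2 of them had an unadjusted p under 0.05. Over all genes 0% were called (260 had an unadjusted p under 0.05). The log2 difference of mt-Nd2 was -1.12 (SE 0.29, 95% interval -1.80 to -0.44, limma adjusted p = 1.00), and it was -1.23 within replicate 1 and -1.02 within replicate 2. That of mt-Nd4l was 0.98 (SE 0.25, 0.40 to 1.57, limma adjusted p = 1.00), with 0.78 and 1.19 within replicates 1 and 2. The intervals of mt-Nd1 (-0.57 to 0.62) and mt-Nd3 (-1.41 to 0.45) included 0. Groups did not overlap, higher in CBR, for 1 of 7 members (15.7% of all genes) and, lower in CBR, for 1 of 7 (17.3% of all genes). The median log2 difference was 0.06 over the 7 members and -0.01 over all genes tested. In bulk libraries, a change shared by all members could come from the number of mitochondria or cells or from the RNA in each, which cannot be told apart. Here 5 members had a positive and 2 a negative difference, and the cause was not tested.

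**Figure D2:**
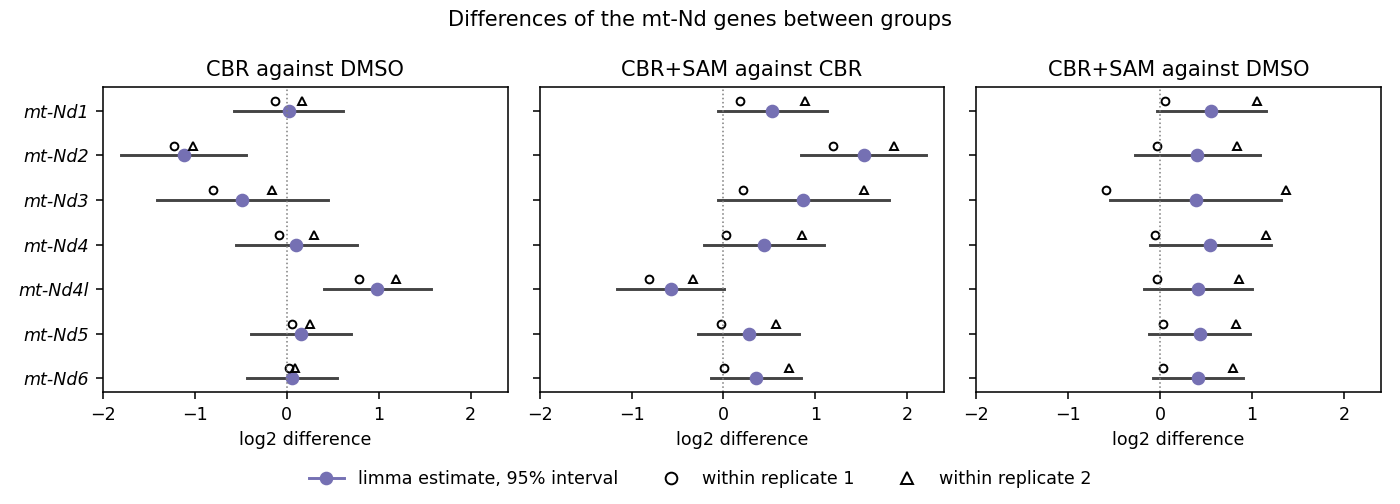
Log2 difference of each gene on the log2(value + 1) scale in the 3 comparisons, with limma's estimate and 95% interval as a filled point and line and the difference within each replicate as open symbols. In CBR against DMSO mt-Nd2 lies at -1.12 and mt-Nd4l at 0.98, and in CBR+SAM against DMSO the open circles of replicate 1 lie near or below 0.

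Ratios between members within a library do not depend on how that library was scaled, and are given as descriptions with no test. Relative to mt-Nd1, mt-Nd2 was at 0.214 and 0.183 in CBR, against 0.460 and 0.418 in DMSO. Relative to mt-Nd4, with which it shares 7 bases, mt-Nd4l was at 1.10 and 1.12 in CBR, against 0.601 and 0.602 in DMSO. Since mt-Nd4l and mt-Nd4 may lie on the same RNA, this ratio need not compare separate transcripts. The part of read coverage or assignment along such an RNA was not tested. The ratio of mt-Nd4l to mt-Nd2 was 1.86 and 2.22 in CBR, against 0.461 and 0.482 in DMSO, a 4.33-fold difference of the group means. This pair joins the members with the highest and the lowest difference in this comparison, so a large fold follows from its choice. By contrast mt-Nd4 relative to mt-Nd1 stood at 0.361 and 0.365 in CBR, against 0.352 and 0.334 in DMSO, a 1.06-fold difference. Relative to mt-Nd1, mt-Nd5 was at 0.115 and 0.112 in CBR, against 0.101 and 0.105 in DMSO, a 1.10-fold difference. In both of these ratios the CBR libraries were still above the DMSO libraries. The ratio of mt-Nd5 to mt-Nd4 and that of mt-Nd6 to mt-Nd5 overlapped between these groups. Thus mt-Nd2 made up 9.10% and 7.83% of the sum of the 7 members in CBR, against 18.5% and 17.5% in DMSO, and mt-Nd4l made up 16.9% and 17.4% in CBR, against 8.51% and 8.43% in DMSO.

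**Figure D3:**
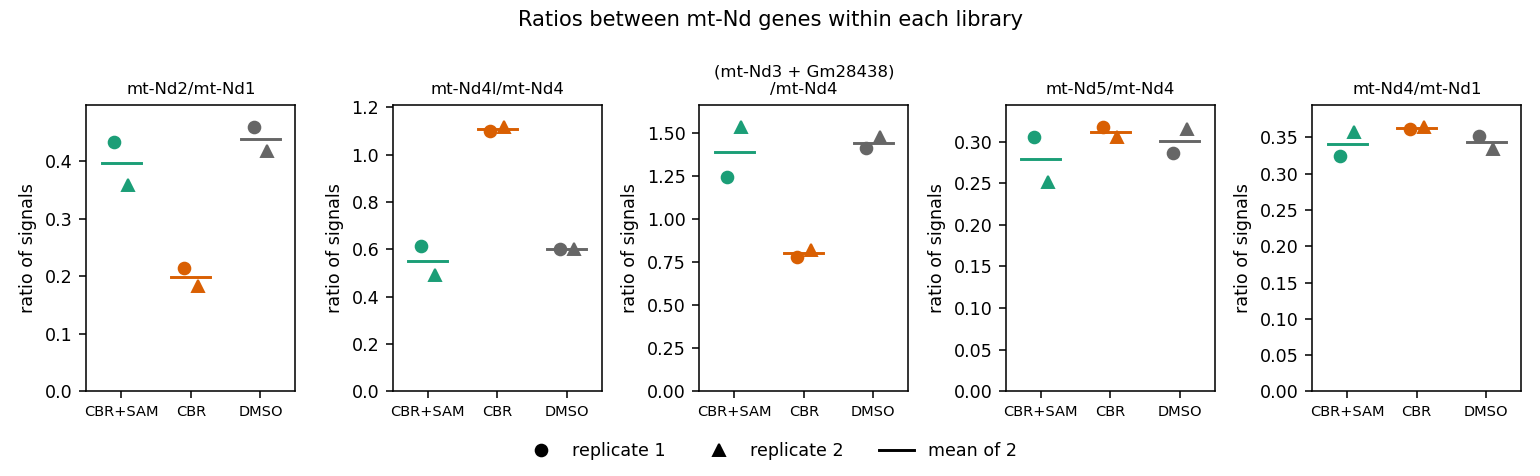
Ratio of signals between members within each library (linear axis from 0), with circles for replicate 1, triangles for replicate 2 and lines for the mean of 2. The CBR libraries stand apart in the ratios of mt-Nd2, mt-Nd4l and mt-Nd3 with its copy, while mt-Nd5/mt-Nd4 and mt-Nd4/mt-Nd1 span narrow ranges. In mt-Nd4/mt-Nd1 the CBR libraries also lie above all others, by a small margin.

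Per-length values of short genes depend on the fragment lengths assumed in quantification, and mt-Nd4l (297 bases) and mt-Nd3 (348 bases) are the shortest members. Among 34 nuclear genes with a single transcript under 400 bases, the median log2 difference between CBR and DMSO was -0.09, with 80% of them between -0.96 and 0.46. The 0.98 of mt-Nd4l lay above that range, and the -0.48 of mt-Nd3 lay inside it. The short nuclear genes only had to reach 1 in 2 or more libraries and were not matched to the members in level. The part of fragment length in the difference was not tested.

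The small subunit gene mt-Nd3 was at 785 and 645 in CBR, against 1370 and 722 in DMSO. Its copy Gm28438 was at 437 and 370 in CBR, against 974 and 765 in DMSO. Their sum was 1222 and 1015 in CBR, against 2344 and 1487 in DMSO, so both CBR libraries were lower. With copies added to their members, the log2 difference of mt-Nd3 was -0.75 (95% interval -1.47 to -0.02, limma adjusted p = 1.00), against -0.48 for the record alone. Gm28438 took 35.8% and 36.5% of the pair in CBR, against 41.6% and 51.4% in DMSO. Relative to mt-Nd4 the pair stood at 0.780 and 0.821 in CBR, against 1.41 and 1.47 in DMSO. Since 1 base separates the records, how much of Gm28438 is nuclear RNA cannot be told apart from reads of mt-Nd3.

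**Figure D4:**
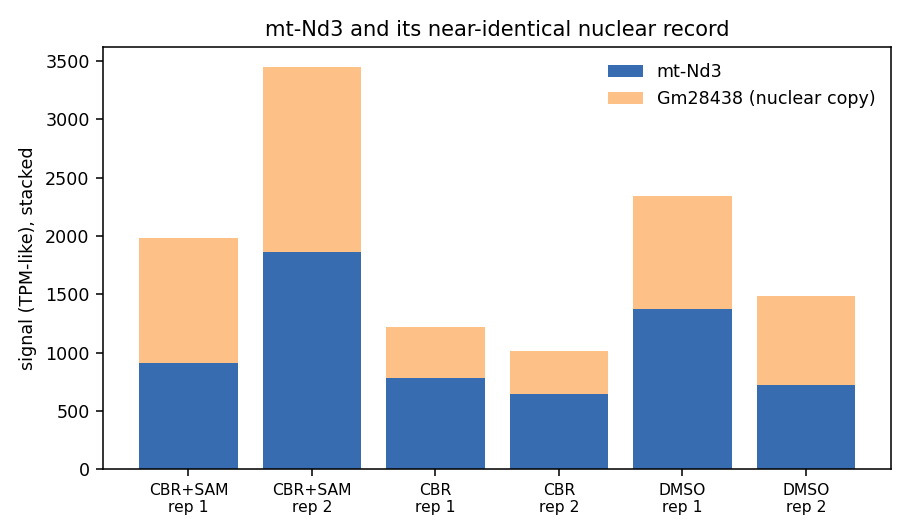
Stacked signal (TPM-like, linear axis from 0) of mt-Nd3 and its near-identical nuclear record Gm28438 in each library. The stacks reach 1222 and 1015 in CBR, against 2344 and 1487 in DMSO, and the copy takes 35.8% to 54.1% of a stack.

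Adding SAM to the inhibitor, CBR+SAM against CBR, gave the opposite signs for mt-Nd2 and mt-Nd4l. These 2 comparisons share the CBR libraries. The gene mt-Nd2 was at 2128 and 2254 in CBR+SAM, against 928 and 622 in CBR, and mt-Nd4l was at 979 and 1100 in CBR+SAM, against 1722 and 1383 in CBR. Both genes separated the groups. The log2 difference of mt-Nd2 was 1.53 (SE 0.29, 95% interval 0.85 to 2.20, limma adjusted p = 0.988), and without CBR+SAM replicate 2 it was 1.48. That of mt-Nd4l was -0.57 (-1.15 to 0.01, limma adjusted p = 0.988), inside the range of -0.96 to 0.79 that held 80% of the short nuclear genes. For mt-Nd3 the values were 909 and 1863 in CBR+SAM, against 785 and 645 in CBR, and its pair with Gm28438 summed to 1981 and 3446 in CBR+SAM, against 1222 and 1015 in CBR.

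None of the 7 members passed the threshold here either, where limma called 0.00816% of all genes. By limma 1 member had an unadjusted p under 0.05, as had 378 of the 12249 genes tested. Groups did not overlap, higher in CBR+SAM, for 5 of 7 members (15% of all genes), namely mt-Nd1, mt-Nd2, mt-Nd3, mt-Nd4 and mt-Nd6. Lower in CBR+SAM was 1 of 7, mt-Nd4l (12.5% of all genes). The margins were narrow in mt-Nd4, at 1596 and 2245 in CBR+SAM against 1566 and 1237 in CBR, and in mt-Nd6, at 363 and 475 in CBR+SAM against 360 and 291 in CBR. The mean log2 difference of the 7 was 0.49, and 0.30 without CBR+SAM replicate 2, whose mitochondrial sum was the highest of the 6. It was 0.18 when each library was rescaled to the same sum of the 13 mitochondrially encoded genes, an alternative chosen after seeing the data. With that rescaling mt-Nd2 was 1.21, mt-Nd4l -0.89, mt-Nd4 0.13 and mt-Nd6 0.04. Within the library, mt-Nd2 relative to mt-Nd1 was at 0.433 and 0.359 in CBR+SAM, against 0.214 and 0.183 in CBR, and mt-Nd4l relative to mt-Nd4 at 0.614 and 0.490 in CBR+SAM, against 1.10 and 1.12 in CBR.

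Embryos with CBR+SAM against those with DMSO had log2 differences of 0.39 to 0.56 for the 7 members. None of these passed limma's threshold, and 0.00816% of all genes were called. No member had an unadjusted p under 0.05 by limma, while 262 of the 12249 genes tested did. Groups did not overlap, higher in CBR+SAM, for mt-Nd1, mt-Nd5 and mt-Nd6, 3 of 7 (12.4% of all genes), and lower in CBR+SAM for 0 of 7 (12.1% of all genes). The gene mt-Nd1 was at 4911 and 6276 in CBR+SAM, against 4724 and 3019 in DMSO, and mt-Nd5 at 487 and 565 in CBR+SAM, against 477 and 318 in DMSO. The differences were larger within replicate 2 for 7 of 7 members: for mt-Nd1 the log2 difference was 0.06 within replicate 1 and 1.06 within replicate 2. The mean over the 7 was 0.45, and 0.25 without CBR+SAM replicate 2. When each library was rescaled to the same sum of the 13 mitochondrially encoded genes, an alternative chosen after seeing the data, that mean was -0.000255, and the log2 differences of 5 of the 7 members, mt-Nd2, mt-Nd3, mt-Nd4l, mt-Nd5 and mt-Nd6, turned negative. The ratio of mt-Nd4l to mt-Nd2, the pair chosen above, was 0.460 and 0.488 in CBR+SAM, against 0.461 and 0.482 in DMSO. Relative to mt-Nd1, mt-Nd2 was at 0.433 and 0.359 in CBR+SAM, against 0.460 and 0.418 in DMSO. Relative to mt-Nd4, mt-Nd4l was at 0.614 and 0.490 in CBR+SAM, against 0.601 and 0.602 in DMSO.

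The 7 members made up 21.0% and 19.3% of the 13 mitochondrially encoded genes in CBR+SAM, 17.0% and 17.8% in CBR, and 19.4% and 19.7% in DMSO. Near-identical nuclear records outside these sums also held signal: Gm10925 of mt-Atp6 at 1719 to 3654 and Gm29216 of mt-Co1 at 1404 to 4181. Gm28437 of mt-Co3 was at 211 to 1554. With copies added to their genes, the log2 difference of mt-Co1 in CBR+SAM against CBR was 0.50, against 0.27 for the record alone. The part of these records in the shares was not tested. The 13 genes in turn took 5.42% and 7.24% of the library in CBR+SAM, 6.03% and 4.44% in CBR, and 6.16% and 3.83% in DMSO. Among the other 6, mt-Cytb, the mitochondrially encoded subunit of complex III, was at 3134 and 2905 in CBR, against 4439 and 3592 in DMSO, with a log2 difference of -0.40 (95% interval -0.997 to 0.19). In CBR+SAM mt-Cytb was at 4138 and 6949, with a log2 difference from CBR of 0.83 (95% interval 0.24 to 1.42, limma adjusted p = 0.988). Its signs in these 2 comparisons were thus those of mt-Nd2, as were those of mt-Co2 (-0.15 and 0.49). The rest of these 6 had a positive difference in CBR against DMSO. The median of these 6 was 0.20 for CBR over DMSO, 0.28 for CBR+SAM over CBR and 0.41 for CBR+SAM over DMSO, and none was called.

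The nuclear genes of complex I were all tested, 37 in number, and none was called in any comparison by limma, nor had any an unadjusted p under 0.05. In CBR against DMSO 28 of 37 had a negative difference, with a median of -0.15, beside -0.01 over all genes tested. Groups did not overlap for 13 of 37 lower in CBR (17.3% of all genes) and 2 of 37 higher in CBR (15.7% of all genes). With SAM added, 32 of 37 were positive against CBR, with a median of 0.18, and 22 were positive against DMSO, with a median of 0.03. Non-overlapping groups were then counted for 8 higher and 1 lower in CBR+SAM against CBR (15% and 12.5% of all genes) and for 3 higher and 3 lower in CBR+SAM against DMSO (12.4% and 12.1%). The smallest p in CBR against DMSO belonged to Ndufa7, an accessory subunit, at 34.5 and 30.1 in CBR, against 41.1 and 46.4 in DMSO, a log2 difference of -0.43 (95% interval -0.87 to 0.02). Ndufv2, a subunit of the NADH-oxidising module, was at 27.9 and 29.9 in CBR, against 35.9 and 35.5 in DMSO.

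Of 17 complex I assembly factors 15 were tested, and 11 of them had a negative difference in CBR against DMSO, with a median of -0.15 and none called. Ndufaf5, a factor of early assembly, was at 1.40 and 1.32 in CBR, against 2.24 and 3.24 in DMSO, a log2 difference of -0.65 (95% interval -1.22 to -0.08, limma adjusted p = 1.00). For the 30 genes of mitochondrial transcription and RNA processing the median was 0.04 in CBR against DMSO, and for the 10 tested genes of mitochondrial DNA maintenance it was 0.02, with none called. Pnpt1, the mitochondrial polynucleotide phosphorylase, was at 7.22 and 10.1 in CBR, against 5.17 and 7.19 in DMSO. Dguok, a kinase that supplies mitochondrial DNA synthesis with nucleotides, was at 80.5 and 70.2 in CBR, against 62.6 and 51.0 in DMSO.

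Among 5561 nuclear protein-coding genes whose mean was 10 or more, the level most like mt-Nd4l over the 6 libraries was that of Fastkd2, a mitochondrial RNA-binding protein gene, with a Pearson r of 0.993. It was at 22.9 and 24.1 in CBR+SAM, 27.4 and 25.2 in CBR, and 23.5 and 20.6 in DMSO. Next came Cgn (0.985) and Cenpv (0.974). Most like mt-Nd2 were Pot1b (0.973), Rpl7a and Ptrh2 (0.971 each). Most like the mean of the 7 members was Itch (0.979), followed by Cyp4x1 (0.978), Gm20449 (0.977), Naa40 (0.976) and Nup50 (0.974). These values are descriptions over 6 libraries that share groups and depth, picked as the highest among many genes.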

How the data were processed

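RNA of 1-cell embryos was turned into cDNA by the SMART-Seq v4 kit and then tagged by Nextera XT, per the labels' protocols. Per the submitters' processing notes, the named tools are fastp, kallisto and DESeq2 and the build is mm10, with neither versions nor roles. The deposited signal, 1 number for each gene in each library, resembles TPM, but columns summed to 956209 to 1059424, so they are not plain TPM as deposited, and whether a further scaling was applied is not given. Depth was estimated from the steps between low values and is approximate.

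Values were taken as log2(value + 1), which understates differences of low genes. The 12249 genes that reached 1 in 2 or more libraries were fitted over all 6 libraries, using limma 3.58.1 (R 4.3.3) and its mean-variance trend. The Benjamini-Hochberg adjustment ran over all of these genes in each comparison, and calls were made at an adjusted p under 0.05. Exact permutation was not used, since its smallest two-sided p for 2 against 2 is 0.333. Nuclear copies were searched among GENCODE M21 transcripts with blastn 2.17.0. The members and lists were chosen with earlier results of these data known. From each list the genes with the smallest p in CBR against DMSO were named, and the genes most like a member by Pearson r. The fit was also run on simulated independent genes with known shifts, to check that the mean estimate had the right size. That check does not show how many true differences the test would miss in these libraries.

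The main fit used the group only, so its intervals do not take any pairing into account. Replicate numbers in the labels served to pair libraries for the differences within a replicate and for the replicate block. Over 5939 genes, replicate differences correlated at 0.599 between CBR and DMSO. The correlation was 0.258 between CBR+SAM and DMSO and 0.12 between CBR+SAM and CBR. For the members, replicate 1 was the higher in CBR and DMSO but the lower in CBR+SAM. Alternatives were other pseudocounts, filters and scalings, no trend, a replicate block, the 4 libraries compared alone, copies added to their members, and each library left out. A scaling to the same mitochondrial sum was added after seeing the data.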

Additional observations from a re-analysis of the deposited data

How the results depend on the processing

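No member was called in any comparison under any of the 18 alternative settings, and among 1021 values the log2 differences of single genes changed sign in 43. The mean over the members changed sign in 3 values. In CBR against DMSO it was 0.30 without DMSO replicate 1 and 0.14 without CBR replicate 2, against -0.04 with all libraries. Both moves were smaller than the replicate spread of 0.353. That spread comes from the same replicate differences, so this cannot show that the sign is stable. The third sign change is given with the mitochondrial rescaling. The fit with a replicate block changed no call: mt-Nd2 in CBR against DMSO was -1.12 (95% interval -1.66 to -0.58). Without 1 library the mean log2 difference of the members ran from -0.38 to 0.30 in CBR against DMSO, from 0.30 to 0.69 in CBR+SAM against CBR and from 0.11 to 0.79 in CBR+SAM against DMSO, while mt-Nd2 in CBR against DMSO ran from -1.51 to -0.73 and mt-Nd4l from 0.62 to 1.34. Signs turned without 1 library in CBR against DMSO for mt-Nd1 (-0.30 to 0.35), mt-Nd4 (-0.26 to 0.46), mt-Nd5 (-0.14 to 0.45), mt-Nd6 (-0.13 to 0.24), mt-Co1 (-0.24 to 0.49), mt-Co2 (-0.53 to 0.22), mt-Atp6 (-0.15 to 0.77) and mt-Atp8 (-0.13 to 0.67). They also turned in CBR+SAM against CBR for mt-Co3 (-0.32 to 0.26), mt-Atp6 (-0.14 to 0.50) and mt-Atp8 (-0.034 to 0.59), and in CBR+SAM against DMSO for mt-Nd3 (-0.13 to 0.90) and mt-Co2 (-0.035 to 0.72). In CBR against DMSO mt-Nd1 was -0.020 with each library rescaled to a sum of 1000000 and -0.016 when rescaled without the mitochondrial genes. With nuclear copies added mt-Co3 was 0.085 in CBR+SAM against CBR. The cause of these changes was not tested.

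Rescaling to the same mitochondrial sum, chosen after seeing the data, changed most: it turned 17 of the signs. That sum leaves out the nuclear copies, and their part in this rescaling was not tested. The median of all genes became -0.13 for CBR over DMSO, -0.25 for CBR+SAM over CBR and -0.39 for CBR+SAM over DMSO, and limma called 27, 29 and 28 of 12429 genes in that order. That fit pooled the spread over genes to 37287 degrees of freedom, and why more genes passed was not tested. In CBR against DMSO mt-Nd1 was -0.11, mt-Nd4 -0.031, mt-Nd6 -0.079 and mt-Co1 -0.0073. In CBR+SAM against CBR mt-Nd5 was -0.042, mt-Co1 -0.041, mt-Atp6 -0.14 and mt-Atp8 -0.036. In CBR+SAM against DMSO mt-Nd2 was -0.047, mt-Nd3 -0.063, mt-Nd4l -0.038, mt-Nd5 -0.020, mt-Nd6 -0.035, mt-Co1 -0.048, mt-Co2 -0.11, mt-Co3 -0.084 and mt-Cytb -0.025, and the mean of the members was -0.000255 in place of 0.45.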
